A study of Arabidopsis thaliana with 6 samples.

Results

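WRKY6, WRKY47, WRKY53 and STZ are nuclear genes for transcription factors of stress and senescence in Arabidopsis. They are 4 of 13355 genes that the array annotation pairs with a single-gene probe set, and each is read by 1 probe set. They were chosen by their measured values, which were higher in albino msh1 tissue than in wild type, so their difference between the groups is described here and not tested. STZ (salt tolerance zinc finger) is also known as ZAT10.

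WRKY proteins are a plant family of transcription factors that bind W-box elements in promoters and relay pathogen, wounding, nutrient and ageing signals. Many WRKY genes respond within a short time to a stimulus and regulate each other. STZ belongs to a separate family, the C2H2 zinc finger proteins with a repressor (EAR) motif, which respond to salt, cold, drought, strong light and reactive oxygen.

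The study profiled the aerial part of Arabidopsis plants 4 weeks old on Affymetrix arrays, with 3 wild-type and 3 albino msh1 samples as biological replicates; how many plants an array stands for is not stated. Both groups were kept on MS medium supplied with 1.5% sucrose, under 12 h of light and 12 h of dark at 24 °C. The MSH1 protein, a MutS homologue, limits recombination of the mitochondrial and plastid genomes. The labels name no allele and no batch, and the MSH1 transcript was not analysed here. Since all 3 msh1 samples were albino, genotype and albino state cannot be told apart.

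The arrays gave values for 22746 probe sets besides controls, with 75th percentiles of 7.75 to 7.94 on the log2 scale. Arrays correlated at r = 0.989 to 0.995 within a group and at r = 0.969 to 0.985 between groups, across probe sets, which are not independent replicates. The number of arrays limits the precision. Of the green leaf markers 3 of 9 could be read (LHCB4.1, RCA and PRK), and their mean log2 value per array was 12.93 to 13.04 in wild type and 12.16 to 12.46 in albino tissue. Of the root markers 2 of 9 could be read (EXPA7 and EXPA18), with means of 3.98 to 4.18 and 4.02 to 4.27. None of the 7 flower and 7 seed storage markers was paired with a probe set. Whether the makeup of the tissue has a part in the results below was not tested, and in whole shoots more cells of a type and more RNA per cell cannot be told apart.

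WRKY6 (AT1G62300) acts in leaf senescence and defence and represses the phosphate transporter gene PHO1. Its log2 values were 5.93, 5.67 and 5.62 in wild-type replicates 1 to 3 and 7.21, 8.04 and 7.68 in msh1 albino replicates 1 to 3. All albino arrays lay above all wild-type arrays, with 1.28 between the lowest albino and the highest wild-type value. The means were 5.74 ± 0.17 and 7.64 ± 0.42 (SD, n = 3), and the difference was 1.90 ± 0.20 (SE), which is 3.73-fold.

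WRKY47 (AT4G01720) belongs to the same subgroup of the family as WRKY6. Its values were 6.20, 6.11 and 6.35 in wild type and 7.20, 7.57 and 7.29 in albino tissue. The groups did not overlap, and the replicates of each lay closer together than those of the other 3 genes. The means were 6.22 ± 0.12 and 7.35 ± 0.19 (SD, n = 3), and the difference was 1.13 ± 0.12 (SE), or 2.19-fold.

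WRKY53 (AT4G23810) is an early regulator of leaf senescence, known to interact with the kinase MEKK1. Its values were 4.64, 4.15 and 4.68 in wild type and 5.64, 7.34 and 5.91 in albino tissue. Albino replicate 2 stood far above the other albino arrays, and even the lowest albino array lay 0.96 above the highest wild-type array. The means were 4.49 ± 0.30 and 6.30 ± 0.91 (SD, n = 3), with a difference of 1.81 ± 0.41 (SE), or 3.5-fold. Its mean over all arrays lay at the 44.4th percentile of all probe sets, the lowest of the 4 genes.

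STZ (AT1G27730) had values of 6.74, 5.89 and 6.09 in wild type and of 7.42, 9.55 and 7.88 in albino tissue. Albino replicate 2 was again the highest, and the groups were separated by 0.69. The means were 6.24 ± 0.44 and 8.28 ± 1.12 (SD, n = 3). Its difference was 2.05 ± 0.51 (SE), or 4.13-fold, the largest of the 4 and the one with the largest SE.

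**Figure D1:**
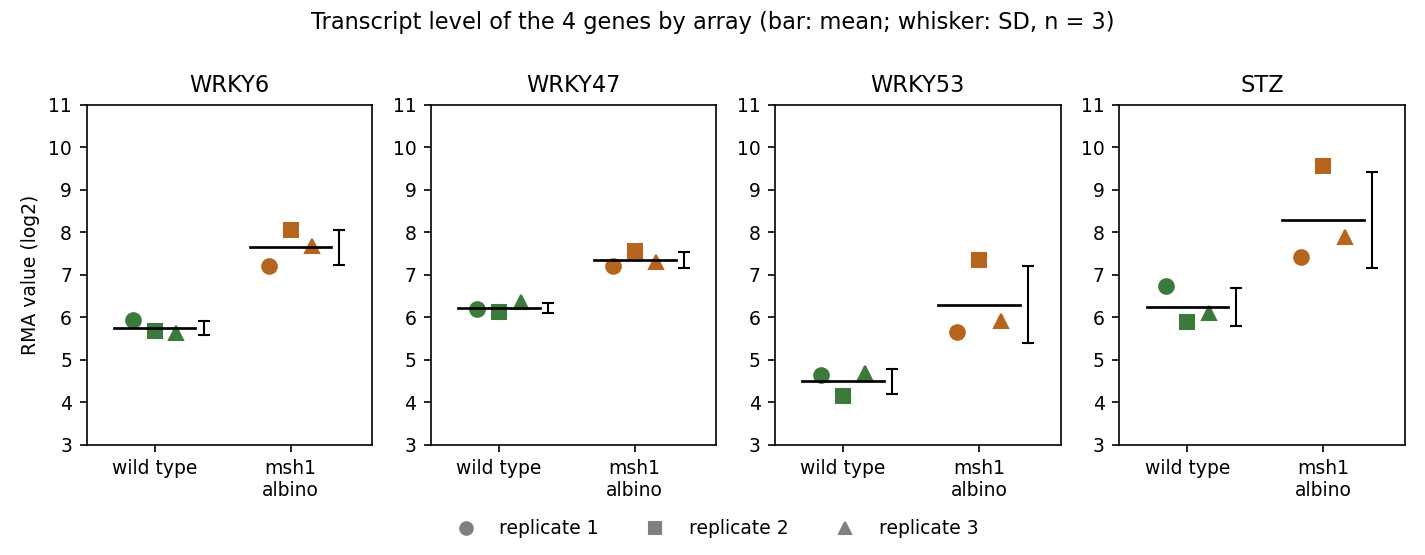
RMA values (log2, y axis) of WRKY6, WRKY47, WRKY53 and STZ in 3 wild-type and 3 msh1 albino arrays, with the replicate number as the symbol, the mean as a bar and the SD (n = 3) as a whisker. In each panel the albino arrays lie above the wild-type arrays, and albino replicate 2 is the highest array, reaching 9.55 for STZ.

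By size the differences ran from STZ through WRKY6 and WRKY53 to WRKY47. STZ, WRKY6 and WRKY53 lay within 1 SE of each other and cannot be ordered. In all 4 genes the groups did not overlap. Over the 22746 probe sets the groups did not overlap in 29.9%, with the albino arrays above in 10.1%, and a difference of at least 1 on the log2 scale towards albino tissue was found in 1.95%; nothing is read from this for the 4 genes, which were chosen for that difference.

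Within the albino group the 4 genes had the same highest array. Albino replicate 2 exceeded the mean of albino replicates 1 and 3 by 1.90 for STZ, 1.56 for WRKY53, 0.60 for WRKY6 and 0.32 for WRKY47. The order of the albino arrays was also the same in all 4, with replicate 3 second and replicate 1 lowest. That order was found in 16.3% of all tested probe sets and in 39.5% of the 854 that were higher in albino tissue by limma (adjusted p under 0.05). Of the 363 among these with at least a 2-fold difference, 48.5% had it. Albino replicate 2 was the highest albino array in 41.2% of all probe sets, in 74.7% of those 854, and in 84.0% of the 363 among them with at least a 2-fold difference. The 4 genes thus share their highest array with most transcripts that rose.

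In WRKY53 and STZ the excess of albino replicate 2 was above 1. An excess of at least 1 was found in 0.95% of all probe sets, in 6.32% of the 854 higher ones and in 14.9% of the 363 that were higher by at least 2-fold. The leaf marker mean in albino replicates 1 to 3 was 12.46, 12.37 and 12.16, so replicate 2 was neither the highest nor the lowest in that mean. The single markers differed. Replicate 2 was the highest for LHCB4.1 (12.8, 13.0 and 12.6), the lowest for PRK (11.6, 11.2 and 11.3) and in between for RCA. Whether leaf content has a part in the excess was not tested. The SD among albino arrays was, relative to that among wild-type arrays, 3.05 times as large for WRKY53, 2.54 times for STZ, 2.5 times for WRKY6 and 1.63 times for WRKY47. A larger SD in albino tissue was found in 54.6% of all probe sets, 71.5% of the 854 and 78.5% of the 363.

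Without albino replicate 2 the differences were 1.29 for WRKY53, 1.41 for STZ, 1.70 for WRKY6 and 1.02 for WRKY47. WRKY6 then had the largest difference in place of STZ. Without albino replicate 1 they were 2.13, 2.48, 2.12 and 1.21 in the same order of genes. These 2 arrays gave the lowest and the highest value of every gene among the fits that left out 1 array. In wild type, STZ was higher in replicate 1 than in the other wild-type arrays by 0.75, against 0.29 for WRKY6, 0.23 for WRKY53 and -0.03 for WRKY47.

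**Figure D2:**
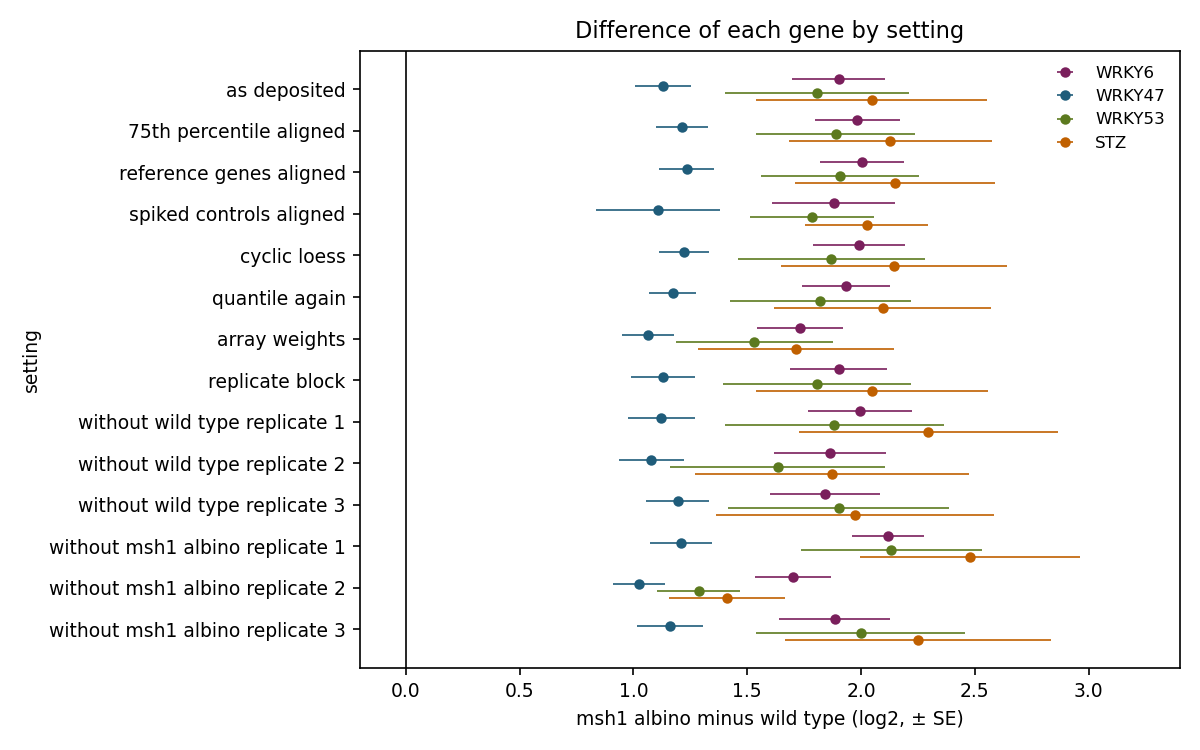
Difference between msh1 albino and wild type (log2, x axis, bars ± SE) of the 4 genes under each setting (y axis), from the values as deposited to fits without 1 array. All points lie above 0, and WRKY53 and STZ move most, to 1.29 and 1.41 without msh1 albino replicate 2.

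The other readable genes of the WRKY family are described next. They are what was left once WRKY6, WRKY47 and WRKY53 had been chosen for their difference, so they are no independent comparison. Among 72 WRKY loci 7 could be read, which leaves 4 besides WRKY6, WRKY47 and WRKY53. By limma (adjusted p under 0.05 over all probe sets) 0 of the 4 passed in either direction, where 11.2% of all tested probe sets passed; at an unadjusted p under 0.05 WRKY22 and WRKY1 passed, where 25.7% of all probe sets did. The median difference of the 4 was 0.03, beside -0.04 over all probe sets. The groups did not overlap in 2 of them, WRKY22 and WRKY1, in opposite directions, beside 29.9% of all probe sets.

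WRKY22 acts downstream of a mitogen-activated kinase cascade in pattern-triggered immunity. Its values were 5.01, 5.11 and 4.92 in wild type and 5.50, 6.86 and 5.98 in albino tissue. The groups did not overlap, and the order of the albino arrays was that of the 4 chosen genes. The difference of 1.1 ± 0.30 (SE, 3 arrays per group) missed the threshold by limma (adjusted p = 0.0557). It passed in 8 of 16 alternatives, with adjusted p-values over all of them from 0.00255 with the spiked controls aligned to 0.150 without wild-type replicate 3. Without albino replicate 2 the difference was smaller and passed (0.73, adjusted p = 0.0316), and without albino replicate 1 it was 1.41 (adjusted p = 0.0212). With the spiked controls aligned the SE was 0.27 for each of the 4 chosen genes alike. The p-values of that setting, here and below, thus do not reflect a gene's own spread among replicates.

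WRKY42, a close relative of WRKY6, had values of 3.80, 3.89 and 3.79 in wild type and 3.79, 4.19 and 3.87 in albino tissue. The groups overlapped, and the difference was 0.12 ± 0.12 (SE; limma adjusted p = 0.628). WRKY20 had 7.68, 8.0 and 8.08 against 7.83, 7.81 and 7.91, a difference of -0.07 ± 0.12 (adjusted p = 0.800). WRKY1, listed under its symbol ZAP1, was at 8.14, 8.29 and 8.41 in wild type and at 8.04, 7.98 and 8.04 in albino tissue. Its albino arrays all lay below the wild-type arrays, with a difference of -0.26 ± 0.10 that did not pass (adjusted p = 0.153).

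**Figure D3:**
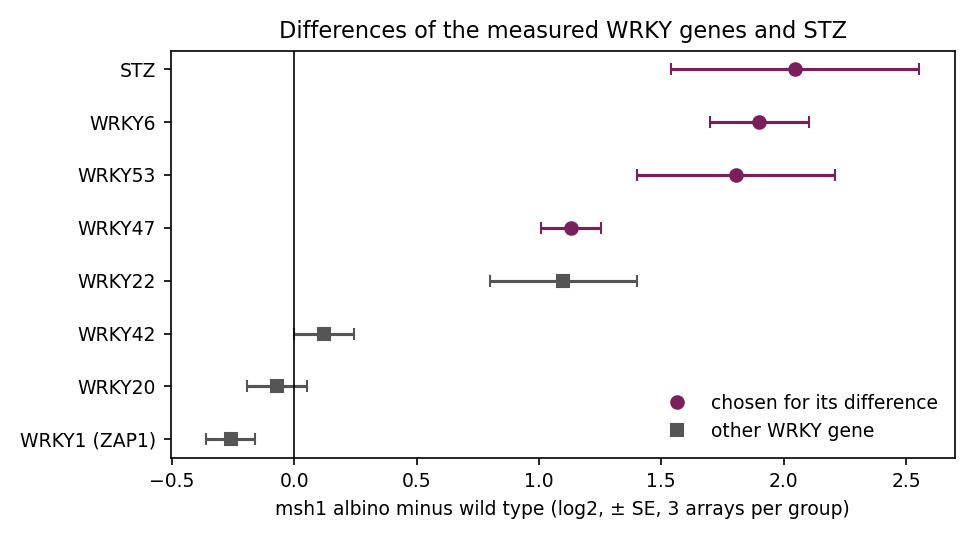
Difference between msh1 albino and wild type (log2, x axis, ± SE, 3 arrays per group) of the 7 measured WRKY genes and STZ (y axis). Circles mark the genes chosen for their difference, between 1.13 and 2.05; of the squares, WRKY22 lies at 1.1 and the other three between -0.26 and 0.12.

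STZ was the only one of 9 listed genes of its zinc finger type that could be read. Over all probe sets 3.75% rose and 7.44% fell by limma, shares to be set beside each count here and in the lists below. Among other families of transcription factors, bZIP had 22 measured genes, of which 1 fell and 0 rose by limma (median difference -0.02). The one that fell was bZIP44, with -0.50 ± 0.11 (SE, adjusted p = 0.0288). That call was lost without any single array other than wild-type replicate 1 (adjusted p = 0.0538 to 0.106) and with arrays aligned on reference genes (0.0820), spiked controls (0.452) or the 75th percentile (0.0553), after cyclic loess (0.0529) and with the replicate block (0.0818). With the reference genes aligned or after cyclic loess 2 bZIP genes rose and 0 fell, BZIP53 (adjusted p = 0.0328 and 0.0230) and BZIP60 (0.0403 and 0.0457). Of 7 bHLH genes 1 rose, BHLH101, a regulator of the iron deficiency response, by 1.15 ± 0.16 (adjusted p = 0.00549), and the median was -0.15. The highest array of BHLH101 in albino tissue was replicate 1 (6.39, 6.13 and 5.98 in replicates 1 to 3), unlike in the 4 genes. NAC014, the 1 NAC gene read, had a difference of -0.05 ± 0.13 (adjusted p = 0.855). No single-gene probe set carried a numbered ERF, DREB, MYB, HSF or VQ symbol, although genes of these families can bear other symbols, as ORA47 does below.

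Genes known to work with these factors could be followed in part. None of the 18 listed upstream kinases and partners of WRKY proteins, the 18 other rapid stress factors or the 9 phosphate and boron genes was paired with a probe set. Of 15 salicylic acid genes 1 was measured, SAG101, which works with EDS1 in immunity, and it rose. Its values were 4.05, 3.83 and 3.96 in wild type and 4.68, 5.66 and 4.60 in albino tissue, highest in albino replicate 2. The difference was 1.03 ± 0.26 (SE; limma adjusted p = 0.0441). SAG101 missed the threshold when wild-type replicate 1 (adjusted p = 0.0842), 2 (0.153) or 3 (0.115) or albino replicate 1 (0.0557) was left out, and with the replicate block (0.0697).

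Of 17 leaf senescence genes 1 was measured, SAG29, a sugar transporter of the SWEET family that rises in ageing leaves. It had values of 7.33, 5.93 and 6.82 in wild type and 5.86, 5.13 and 5.92 in albino tissue. The albino arrays lay below all wild-type arrays, and the difference of -1.06 ± 0.35 (SE) did not pass (adjusted p = 0.104), except without wild-type replicate 2, with the spiked controls aligned or with the replicate block. Of 15 reactive oxygen genes 3 were measured and 1 rose, AT3G28580, by 0.52 ± 0.09 (adjusted p = 0.0114; 0.0551 without wild-type replicate 2 and 0.515 with the spiked controls aligned). The chloroplast ascorbate peroxidases SAPX (0.23 ± 0.15, adjusted p = 0.421) and TAPX (-0.43 ± 0.12, adjusted p = 0.0543) did not pass, although TAPX passed without albino replicate 1 (0.0494) and when dimmer probe sets below the 50th percentile were dropped (0.0463).

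Since so few listed genes could be read, further lists were drawn up from the symbols of the array annotation after the first results had been seen. Of 11 kinases and receptors 2 rose and 0 fell (median -0.10), where 3.75% of all probe sets rose and 7.44% fell. EFR, the receptor for a bacterial elongation factor, had values of 4.95, 4.67 and 4.77 in wild type and 5.51, 6.13 and 5.82 in albino tissue. BIK1, a cytoplasmic kinase that acts with such receptors, had 8.27, 8.09 and 8.03 against 8.71, 9.37 and 8.93. In both genes albino replicate 2 was the highest array and the groups did not overlap. Albino replicate 2 was the highest albino array in 41.2% of all probe sets and in 74.7% of the 854 that rose by limma. The groups did not overlap in 29.9% of all probe sets. Nothing is read from either trait for EFR and BIK1, which were named because they rose. EFR rose by 1.03 ± 0.16 (SE; limma adjusted p = 0.00957, and 0.0511 without wild-type replicate 2). BIK1 rose by 0.87 ± 0.17 (adjusted p = 0.0181, and 0.0752 and 0.0665 without wild-type replicate 2 or 3).

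Among 17 ubiquitin ligases of the PUB, ATL and related types 3 rose and 0 fell (median 0.04), where 3.75% of all probe sets rose and 7.44% fell. Across 18 alternatives 0 to 4 rose and 0 to 2 fell; PUB19, with -1.0 ± 0.27 (adjusted p = 0.0532), passed as lower in 5 of them, such as with array weights (0.0312) or without wild-type replicate 1 (0.0327). PUB22 and PUB23 are U-box ligases that dampen pattern-triggered immunity. PUB23 had values of 4.32, 4.3 and 4.36 in wild type and 5.35, 7.28 and 5.82 in albino tissue, the order seen in the 4 genes. It rose by 1.83 ± 0.42 (SE; adjusted p = 0.0330). PUB22 rose by 1.06 ± 0.27 (adjusted p = 0.0433) and PUB43 by 0.80 ± 0.16 (adjusted p = 0.0195). These calls depended on single arrays. Without wild-type replicate 1, 2 or 3 the adjusted p was 0.0794, 0.113 and 0.0921 for PUB23 and 0.0840, 0.129 and 0.129 for PUB22. It was 0.0587 for PUB23 without albino replicate 3, 0.0651 for PUB23 with an intensity trend, and 0.0516 for PUB22 without albino replicate 1. For PUB43 it was 0.0568 and 0.0822 without wild-type replicate 1 or 2, and 0.0701 with the spiked controls aligned.

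Of 26 calcium genes 1 rose and 1 fell (median 0.00). With the reference genes aligned 5 rose and 1 fell, the added ones being IQD23 (adjusted p = 0.0135), CML41 (0.0321), CML42 (0.0374) and CML38 (0.0459). GLR2.7, a glutamate receptor-like channel, rose by 0.85 ± 0.21 (SE; adjusted p = 0.0418), which no longer passed whichever of the 6 arrays was left out (adjusted p = 0.0523 to 0.112) and with the replicate block (0.101). IQD28, an IQ-domain protein, fell by 0.75 ± 0.12 (adjusted p = 0.0101, and 0.0795 with the spiked controls aligned). In the same list CML38, a calmodulin-like protein named after its values were seen, had 3.92, 3.91 and 3.95 in wild type and 4.77, 7.29 and 5.01 in albino tissue. Its difference of 1.77 ± 0.58 did not pass (adjusted p = 0.0994). It was 0.96 and passed without albino replicate 2 (adjusted p = 0.00474), and it also passed after alignment on spiked controls (1.71e-08). The p-value after that alignment does not reflect the spread of CML38 among its replicates.

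Of 15 genes listed by symbol under salicylic acid, jasmonate and ethylene 1 fell, 0 rose and the median was 0.30. The list took in the lectins JAL22, JAL23, JAL33 and JAL34, with differences of 1.47, 0.82, 1.09 and 0.95. Its median and counts are thus not those of hormone genes alone. Across 18 alternatives 0 to 4 rose and 1 to 2 fell. With the spiked controls aligned the 4 that rose were the jacalin-related lectins JAL22, JAL33 and JAL34 (adjusted p = 7.11e-06, 0.00286 and 0.0168) and ORA47, and the 1 that fell was BSMT1 (0.000766). The p-values of that setting do not reflect a gene's own spread among replicates. JAL33 and JAL34 also rose with the reference genes aligned (0.0294 and 0.0268). The 1 that fell with the values as deposited was AOR, an alkenal/one oxidoreductase and so no hormone gene (-0.68 ± 0.10, adjusted p = 0.00621, and 0.141 with the spiked controls aligned). ORA47, a jasmonate-responsive factor named after its values were seen, was at 4.62, 4.80 and 4.42 in wild type and at 4.35, 7.83 and 4.50 in albino tissue. It was thus high in albino replicate 2 alone, with a difference of 0.95 ± 0.82 (adjusted p = 0.556, and 0.0167 with the spiked controls aligned) that was -0.19 without that array.

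Of 16 senescence and cell death genes 2 rose and 0 fell (median -0.20), SAG101 and YLS5. The autophagy genes ATG8C, ATG8F and ATG8G fell as well with array weights (adjusted p = 0.0286, 0.0255 and 0.0362), without albino replicate 2 (0.0212, 0.0241 and 0.0432) and above the 50th percentile filter (0.0467, 0.0386 and 0.0452). YLS5, a DJ-1 family protein, rose by 1.38 ± 0.14 (adjusted p = 0.00233). Its call held in each alternative, with adjusted p-values of 3.44e-05 to 0.0184. Of 12 antioxidant genes 1 fell, SRX, a sulfiredoxin (-0.70 ± 0.14, adjusted p = 0.0200), and the median was 0.05. SRX missed the threshold when wild-type replicate 1 (0.0536), 2 (0.0559) or 3 (0.0570) or albino replicate 1 (0.0503) was left out and with the spiked controls aligned (0.119).

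Over all these families and lists, without the 4 genes, 10 of 132 measured genes rose and 4 fell. That is 10.6% called, near the 11.2% of all tested probe sets. Those that rose were 7.58% of the 132, whereas 3.75% (854) of all probe sets rose and 7.44% (1693) fell. Many of the lists were drawn up after the first results, so nothing is read from this split for the lists. With the reference genes aligned that split was 1397 to 990 over all probe sets and 19 to 3 among the 132, and without wild-type replicate 2 it was 298 to 553 and 2 to 4. Without wild-type replicate 3 the 132 held 5 that rose and 2 that fell. Albino replicate 2 was the highest albino array in 8 of the 10 that rose, near the 74.7% of all 854 probe sets that rose.

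**Figure D4:**
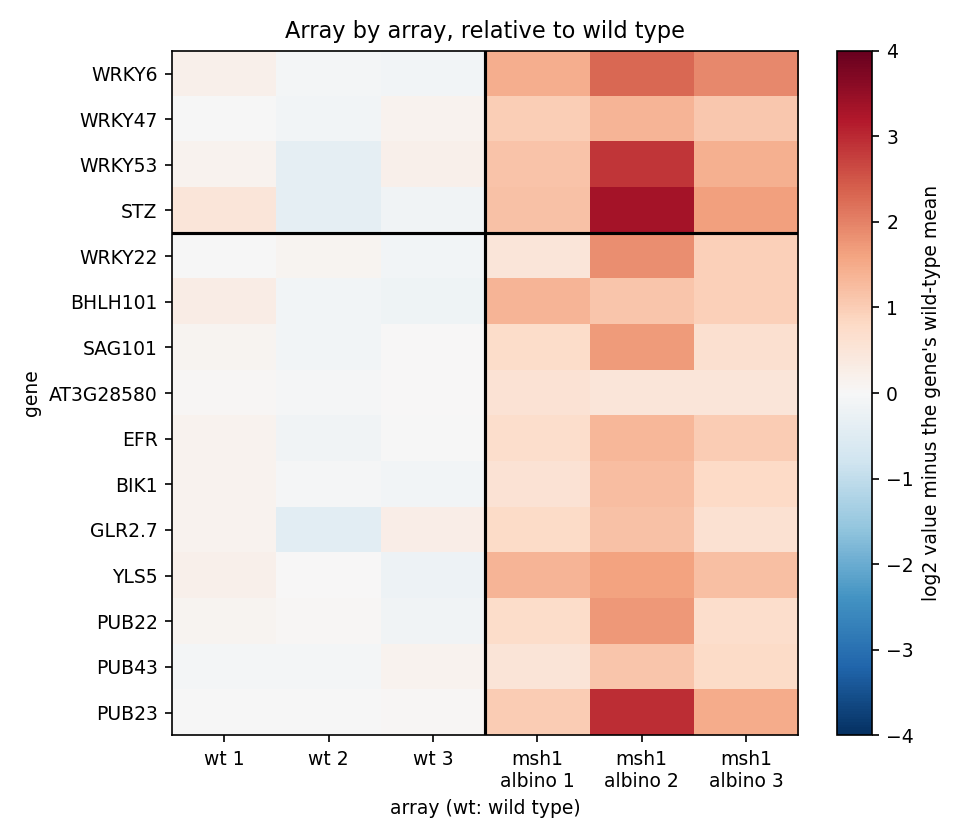
Log2 value minus the wild-type mean of each gene (colour) in the 6 arrays (x axis) for the 4 chosen genes (above the line) and, below it, WRKY22 and the listed genes that rose (y axis). Albino replicate 2 is the darkest column for WRKY53, STZ and PUB23, whereas BHLH101 and AT3G28580 are highest in albino replicate 1.

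The transcripts whose profile over the 6 arrays was most like that of each gene were sought among 13512 other single-gene probe sets. Likeness was the root mean square distance on the log2 scale between profiles centred on their own means. It describes these arrays and says nothing of shared control. Nearest to WRKY6 were ChiC, a class V chitinase (distance 0.08), AT1G51890 (0.08), AT5G25930 (0.11) and B120 (0.12). ChiC was at 4.76, 4.61 and 4.41 in wild type and 6.08, 6.74 and 6.60 in albino tissue. Nearest to WRKY47 were SBT3.5, a subtilase (0.06), AT4G38550 (0.08), FMO, a flavin monooxygenase (0.10), and AT3G60170 (0.11).

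Nearest to WRKY53 were AT5G11410 (0.14), AT4G27280 (0.18), PUB23 (0.18) and AT5G19240 (0.22). Nearest to STZ were AT2G22880 (0.19), ATPMEPCRB (0.25), WRKY53 itself (0.26) and AT4G27280 (0.27). AT4G27280, near to both, had values of 7.53, 7.33 and 7.52 in wild type and 8.27, 10.40 and 8.88 in albino tissue. Among the 4 genes the closest pair was WRKY53 with STZ (0.26), followed by WRKY6 with WRKY53 (0.37), and the farthest was WRKY47 with STZ (0.75).

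The chromosomal neighbours of the 4 genes were compared as well, taking the 3 nearest measured genes on each side in the order of the gene table. WRKY6 and STZ lie on chromosome 1, and WRKY47 and WRKY53 on chromosome 4. Of 25 neighbouring probe sets, for 24 genes, 1 rose and 3 fell by limma, which is 16% called against 11.2% of all. Around STZ 0 of 6 passed by limma and 2 had an unadjusted p under 0.05, beside 25.7% of all probe sets, with differences from -0.36 to 0.32. Near WRKY47, AT4G01700 rose by 1.32 ± 0.16 (SE; adjusted p = 0.00399), from 4.59, 4.67 and 4.21 in wild type to 5.65, 6.09 and 5.70 in albino tissue. It lies 3 genes before WRKY47, and its call held in each alternative that kept it (adjusted p at most 0.0198). The filter at the 50th percentile of the mean dropped it. CRK (also ARPC5), directly before WRKY47, had a difference of -0.07 ± 0.16 (adjusted p = 0.848).

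Near WRKY6 2 genes fell. AT1G62290, directly before it, fell by 0.86 ± 0.16 (adjusted p = 0.0171, and 0.0692 and 0.0631 without wild-type replicate 2 or 3), and AT1G62250 fell by 1.03 ± 0.13 (adjusted p = 0.00494). AT4G23820, directly after WRKY53, fell by 0.37 ± 0.09 (adjusted p = 0.0396), a call lost in 12 of 17 alternatives, among them without any single array other than wild-type replicate 1 (adjusted p = 0.0744 to 0.132). None of the measured genes directly beside WRKY6, WRKY47 or WRKY53 rose, and none directly beside STZ was measured.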

How the data were processed

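The deposited log2 values, 1 for each probe set on each array, come from RMA in affy, per the submitters' processing notes. No version, setting or genome build is given in the sources used here. RMA aligns arrays to each other and shrinks differences at low signal. The values were used as deposited. Names come from the platform annotation, updated through the TAIR10.1 gene table, whose gene order gave the neighbours: 8730 probe sets were unnamed here and 503 had several genes.

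Each of 22746 probe sets was fitted with lmFit and eBayes of limma 3.58.1 in R 4.3.3 (msh1 albino minus wild type, two-sided, Benjamini-Hochberg over all of them, threshold 0.05), after a test on simulated data. The labels call the 3 samples of a group biological replicates.

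The members and lists were chosen with earlier results of these data known, and the lists of kinases, calcium, hormone, cell death, antioxidant and ubiquitin ligase genes after the first results of this work. Named were the 4 genes, all other measured WRKY genes, up to 4 passing members of each list or the 2 largest differences, the 4 nearest profiles of each gene, and neighbours. Paralogues by protein identity were not analysed here. Alternatives were other alignments and normalizations, filters on the mean at the 25th and 50th percentile, an intensity trend, array weights, replicate number as a block, leaving out shared-sequence probe sets, an adjusted p of 0.01, and leaving out each array. With the spiked controls aligned the 4 genes all had an SE of 0.27, so p-values of that setting do not reflect a gene's own replicate spread.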

Additional observations from a re-analysis of the deposited data

How the results depend on the processing

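The differences of WRKY6, WRKY47, WRKY53 and STZ stayed positive in all 13 alternatives and moved by less than the pooled SD between replicates. For the fits that left out 1 array both outcomes were fixed in advance. Groups that do not overlap keep their sign, and leaving out 1 array cannot shift a difference by the pooled SD. The replicate block returned the same difference by construction, and each alignment of arrays shifted the difference of every gene by a common amount. Nothing is read from the sign or the small moves for the fits without 1 array, the block or the alignments. The ranges follow. Leaving out 1 array gave 1.70 to 2.12 for WRKY6, 1.02 to 1.21 for WRKY47, 1.29 to 2.13 for WRKY53 and 1.41 to 2.48 for STZ; other settings gave 1.73 to 2.00, 1.06 to 1.23, 1.53 to 1.91 and 1.72 to 2.15, lowest with array weights and highest with the reference genes aligned. Array weights and the block for these genes, and all settings for neighbours, single genes and the lists drawn up later, were added after seeing the data. Calls over all probe sets were 2547 (854 higher, 1693 lower), 1153 with the spiked controls aligned, 689 at an adjusted p of 0.01, and 851 to 2109 with 1 array left out. With array weights they were 3224 (1063 higher, 2161 lower), the most of any setting. The share of lower calls fell from 1693 of 2547 to 990 of 2387 with the reference genes aligned, 1095 of 2396 on the 75th percentile, 1047 of 2307 after cyclic loess, 1297 of 2483 after quantile normalization and 572 of 1153 on the spiked controls. Among the other WRKY genes 1, WRKY22, was called with reference genes, spiked controls or 75th percentiles aligned, after quantile normalization and with the 25th percentile filter, and 0 to 1 with 1 array left out. The salicylic acid count of 1 became 0 above the 50th percentile of the mean, where SAG101 was not kept, and at an adjusted p of 0.01, and 0 to 1 with 1 array left out. The senescence count of 0 became 1 with the spiked controls aligned, and 0 to 1 with 1 array left out. The reactive oxygen count of 1 became 0 with the spiked controls aligned, above the 25th percentile of the mean and at an adjusted p of 0.01, and 0 to 2 with 1 array left out. The count of 4 neighbours became 2 above the 50th percentile of the mean and at an adjusted p of 0.01, and 2 to 5 with 1 array left out. With array weights it was 6. Over all families and lists the count of 14 became 22 with the reference genes aligned, 23 with array weights, 4 at an adjusted p of 0.01, and 6 to 18 with 1 array left out, also added after seeing the data. Counts for other zinc finger genes, upstream kinases and partners of WRKY proteins, other rapid stress factors, and phosphate and boron genes were not run, as none could be read. Where not stated, the cause was not tested; a stricter threshold leaves fewer calls by construction.

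Same-numbered replicates did not deviate together (r = 0.01, -0.34 and -0.02 across probe sets for numbers 1 to 3), and wild-type replicate 1 went best with albino replicate 2 (0.22), wild-type replicate 2 with albino replicate 3 (0.35). With the replicate block the calls over all probe sets were 1485, those among the other WRKY genes 1, salicylic acid genes 0 and senescence genes 1.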
